A study of Mus musculus with 6 samples.

Results

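A set of 8 genes that carry signals between sensory neurons and macrophages were followed in mouse dorsal root ganglia after renal ischemia-reperfusion (I/R). They were taken by name from the deposited count table, and all were found among its 57180 genes. The set holds the ligands Csf1, Il34, Cx3cl1 and Ccl2, the receptors Csf1r, Cx3cr1 and Ccr2, and the receptor adaptor Tyrobp. All 8 passed the filter on low counts that left 16346 genes for testing. The rule is a list of names, and it was drawn up with earlier results of these libraries known.

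Dorsal root ganglia hold the cell bodies of sensory neurons together with satellite glia, Schwann cells, vessels, connective tissue and resident macrophages. CSF1 and IL-34 are alternative ligands of CSF1R, the receptor on which macrophages and microglia depend for survival and proliferation, and sensory neurons are known to induce Csf1 when their axons are cut. Fractalkine, the product of Cx3cl1, is a membrane-bound neuronal chemokine that can be shed and that binds CX3CR1 on myeloid cells. CCL2 draws monocytes that carry CCR2. Tyrobp encodes DAP12, a signaling adaptor that myeloid receptors such as TREM2 need.

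The 6 libraries were RNA of ganglia between levels T8 and L2 from wild-type mice, 3 with I/R and 3 sham-operated, taken 24 h after surgery. For I/R, a 28 min clamp on the left renal pedicle was followed by reperfusion, and the right kidney was taken out. Sham mice had the same operation without the clamp, per the labels, which do not say separately that their right kidney was removed. Strain, sex, age and the side of the ganglia are not given in the labels.

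Library totals ran from 20234079 to 22010227 expected counts in I/R and from 19092650 to 20390927 in sham. Levels are given as CPM, counts scaled to the normalized library size, and a count of 3, the most that a count of 0 allows, was worth 0.137 to 0.154 CPM. Sensory neuron markers, summed over 10 genes that include Tubb3, Prph, Avil and Slc17a6, stood at 13703 to 17170 CPM in I/R and 15254 to 16199 CPM in sham, as the tissue label has it. Sham 1 and sham 3 stood apart: summed skeletal muscle genes were at 6.38 to 14.6 CPM in the I/R libraries, against 499, 17.5 and 259 CPM in sham 1, 2 and 3. Of all 16346 tested genes, 1716 reached an unadjusted p under 0.05 in edgeR, the background for such counts in the lists below. Over all genes, 1.15% were called at an adjusted p under 0.05, 0.722% as higher and 0.428% as lower in I/R. With the other tools it was 1.91% in DESeq2 and 1.08% in limma-voom. With a library left out, the edgeR share was 1.02%, 0.52% and 0.589% without I/R 1, 2 and 3 and 0.558%, 1.09% and 0.806% without sham 1, 2 and 3, and it was 0.185% against sham 2 alone.

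Of the 8 genes, 1 was called, Csf1, which rose, and none was called lower (0.722% of all tested genes were called higher). Csf1 reached 60.0 ± 1.20 CPM in I/R and 22.5 ± 2.05 CPM in sham (SD, n = 3 each). By library it stood at 60.9, 60.5 and 58.6 CPM in I/R 1 to 3, against 24.5, 22.6 and 20.4 CPM in sham 1 to 3. The groups lay far apart, and the spread among I/R libraries was small. The fold change was 2.66 with a 95% interval of 2.28 to 3.12, or 1.41 ± 0.10 on the log2 scale (SE), with adjusted p = 0.000109 in edgeR's quasi-likelihood test. By p-value Csf1 ranked 12 among the 16346 tested genes. The call held without each library in turn, with log2 fold changes of 1.35 to 1.48 and adjusted p of 0.000326 to 0.00236. It also held against sham 2 alone, the sham library with little muscle RNA, at 1.38 (adjusted p = 0.025). These are whole ganglia, so a change in cell number and a change in RNA per cell cannot be told apart. This holds here and in each result that follows.

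**Figure D1:**
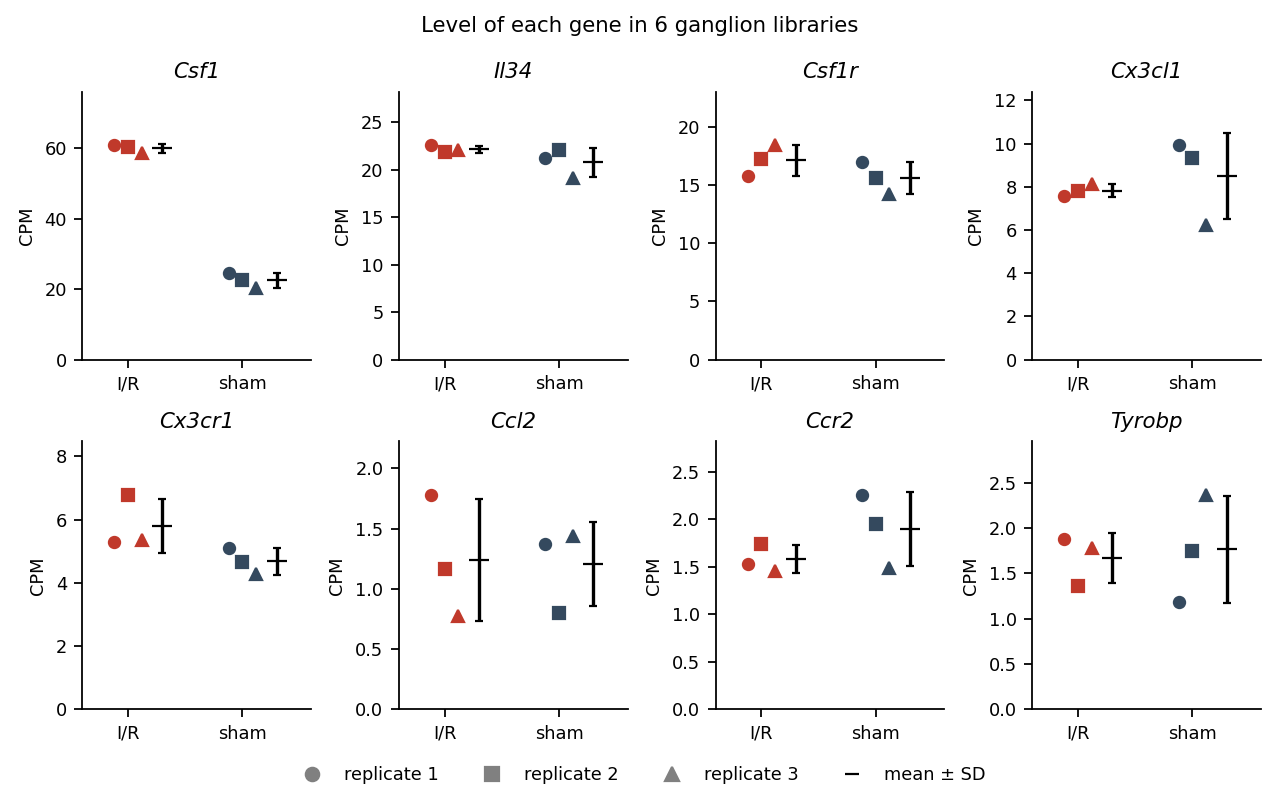
Level in CPM of each of the 8 genes in each library, I/R left and sham right, with the marker shape giving the replicate number and the bar the mean ± SD (n = 3). Csf1 stood at 58.6 CPM or more in I/R libraries and at 24.5 CPM or less in sham libraries; for Cx3cr1 the groups also did not overlap, by a narrow margin, and for the other 6 genes they overlapped.

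The start of Csf1 is shown because it is the member that rose, beside that of Cx3cl1, a neuronal ligand of the set that did not pass the test. Both are RefSeq windows of build GRCm38.p6, from 250 bases before to 50 bases after the annotated start, read 5′ to 3′ on the gene's strand. The Csf1 window is chr3:107760420-107760719 on the minus strand, and that of Cx3cl1 is chr8:94771930-94772229 on the plus strand. Capitals mark a motif match.
Csf1: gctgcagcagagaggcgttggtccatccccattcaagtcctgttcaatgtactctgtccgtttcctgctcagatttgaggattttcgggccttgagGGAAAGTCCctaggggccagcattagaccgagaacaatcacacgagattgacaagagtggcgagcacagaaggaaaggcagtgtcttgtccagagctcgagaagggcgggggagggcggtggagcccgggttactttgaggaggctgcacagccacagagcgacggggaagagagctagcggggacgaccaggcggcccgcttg
Cx3cl1: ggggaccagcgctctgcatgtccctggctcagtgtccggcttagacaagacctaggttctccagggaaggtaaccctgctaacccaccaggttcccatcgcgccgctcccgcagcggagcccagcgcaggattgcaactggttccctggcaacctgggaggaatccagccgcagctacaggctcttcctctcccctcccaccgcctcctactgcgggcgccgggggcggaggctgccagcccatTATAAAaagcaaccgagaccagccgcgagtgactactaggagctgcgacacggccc

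The motifs searched on both strands were TGANTCA for AP-1, TGACGTCA for the cAMP response element, GGANTTTCC for kappa B and TATAAA for the core promoter box. The Csf1 window held 1 kappa B match, on the opposite strand, whose first base lies 154 bases before the start, and no match of the other motifs. This kappa B motif occurred in 1.25% of all 32851 windows of 300 bases. A longer form with a further G at its 5′ end was searched first and matched at the same place in Csf1, in 0.411% of windows, and the motif was shortened after that match was seen. All motifs were chosen with the rise of Csf1 known. The Cx3cl1 window held 1 match of the core promoter box, whose first base lies 6 bases before the start, a motif of 13.6% of windows. AP-1 letters occurred in 7.81% of all windows and the cAMP response element in 1.79%, and in no window of Csf1, Cx3cl1, Cx3cr1 or Ccr2. No match overlapped another. Windows of Il34, Csf1r, Ccl2 and Tyrobp were not used here. A match is a run of letters and not a measured binding site.

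Il34, the alternative ligand of CSF1R, did not pass the test. It stood at 22.6, 21.8 and 22.1 CPM in I/R 1 to 3, against 21.2, 22.1 and 19.1 CPM in sham 1 to 3. The groups overlapped, with sham 3 lowest. The fold change was 1.07 with a 95% interval of 0.907 to 1.25 (adjusted p = 0.82 in edgeR's test), so a rise of the size seen for Csf1 lies outside the interval.

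The balance of the 2 CSF1R ligands was read within each library as a ratio per gene length, which does not depend on library size. Csf1 stood at 2.19, 2.25 and 2.16 times Il34 in I/R 1 to 3, against 0.941, 0.833 and 0.87 times Il34 in sham 1 to 3. Per gene length, Csf1 was thus the more abundant ligand transcript in each I/R library, and Il34 the more abundant in each sham library. In CPM, Csf1 stood above Il34 in sham too (24.5, 22.6 and 20.4 against 21.2, 22.1 and 19.1 in sham 1 to 3). The sham order thus rests on the deposited gene lengths, 2097 bases for Csf1 and 1709 for Il34. The mean log2 ratio was 1.32 higher in I/R, with p = 0.1 in a two-sided exact permutation test over libraries, the smallest that 3 against 3 allows, and 0.2 adjusted over the 4 ratios tested.

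Fractalkine showed a wide spread in sham libraries. Cx3cl1 stood at 7.56, 7.80 and 8.12 CPM in I/R 1 to 3, against 9.92, 9.35 and 6.22 CPM in sham 1 to 3. Sham 3 was the lowest of all 6 libraries and sham 1 the highest, so the groups overlapped. I/R over sham gave a fold change of 0.921 with an interval of 0.699 to 1.21 (adjusted p = 0.86 in edgeR's test). Its log2 fold change was -0.30 without sham 3 and 0.0080 without sham 1.

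Ccl2 was low in all libraries. The deposited counts were 36, 24 and 17 in I/R 1 to 3, against 28, 16 and 28 in sham 1 to 3, or 1.78, 1.16 and 0.776 CPM in I/R and 1.37, 0.80 and 1.44 CPM in sham. I/R 1 was highest and I/R 3 lowest. Its fold change was 1.02, with the widest interval of the 8 genes, 0.583 to 1.80 (adjusted p = 0.98 in edgeR's test). The interval holds a 1.5-fold change in either direction.

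**Figure D2:**
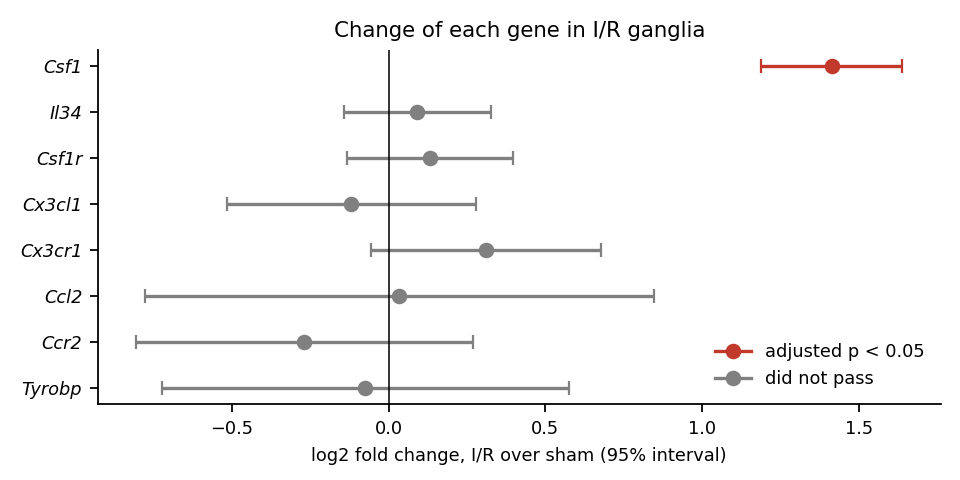
Log2 fold change of I/R over sham for each of the 8 genes with its 95% interval from edgeR's fit, in the order ligands of CSF1R, their receptor, fractalkine and its receptor, CCL2 and its receptor, and the adaptor. Csf1 stands at 1.41 with an interval of 1.19 to 1.64, and the intervals of the other 7 genes include 0.

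Among the receptors, Csf1r stood at 15.7, 17.2 and 18.4 CPM in I/R 1 to 3, against 17.0, 15.6 and 14.2 CPM in sham 1 to 3. The ranges overlapped, with I/R 3 highest and sham 3 lowest. The fold change was 1.10 with an interval of 0.911 to 1.32 (adjusted p = 0.76 in edgeR's test). Deposited counts of Csf1r were not whole in any library, so part of its reads were assigned by estimate.

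Cx3cr1, the fractalkine receptor of macrophages and microglia, was the other gene whose groups did not overlap. It stood at 5.29, 6.78 and 5.34 CPM in I/R 1 to 3, against 5.11, 4.65 and 4.27 CPM in sham 1 to 3. The lowest I/R library was only slightly above the highest sham library, and I/R 2 stood above the rest. It did not pass the test, with a fold change of 1.24, an interval of 0.961 to 1.60 and an adjusted p of 0.56 in edgeR's test. Every I/R value lay above every sham value for 2 of the 8 genes and for 9.23% of all tested genes.

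Ccr2, which marks monocytes, was the gene with the lowest level per gene length. It stood at 1.53, 1.74 and 1.46 CPM in I/R 1 to 3, against 2.26, 1.95 and 1.49 CPM in sham 1 to 3. The groups overlapped through sham 3. Its fold change was 0.83 with an interval of 0.572 to 1.20 (adjusted p = 0.75 in edgeR's test). How the counting treated reads common to genes of similar sequence is not given in the sources used here, so the level of Ccr2 is uncertain to that extent.

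Tyrobp had deposited counts of 38, 28 and 39 in I/R 1 to 3, against 24, 35 and 46 in sham 1 to 3. That is 1.88, 1.36 and 1.78 CPM in I/R and 1.18, 1.75 and 2.37 CPM in sham. The sham libraries held both the lowest and the highest value. Tyrobp had a fold change of 0.949 with an interval of 0.605 to 1.49 (adjusted p = 0.95 in edgeR's test). For all 7 genes that did not pass, the 95% interval of the fold change lay inside a 2-fold change in either direction, while for Cx3cr1 and Ccl2 it reached past a 1.5-fold increase, and for Ccl2, Ccr2 and Tyrobp past a 1.5-fold decrease.

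Levels of different genes were compared per kb of gene length. In I/R the order was Csf1 at 28.6, Il34 at 12.98, Csf1r at 4.42, Tyrobp at 2.80, Cx3cl1 at 2.36, Ccl2 at 1.52, Cx3cr1 at 1.29 and Ccr2 at 0.449 CPM per kb. In sham, Il34 at 12.2 CPM per kb stood ahead of Csf1 at 10.7, with overlapping ranges, and the rest had the order Csf1r, Tyrobp, Cx3cl1, Ccl2, Cx3cr1 and Ccr2. The ranges of Tyrobp and Cx3cl1 overlapped in both groups, as did those of Ccl2 and Cx3cr1, so the order within these pairs is not fixed by the data. Csf1r and Tyrobp overlapped in sham and not in I/R.

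**Figure D3:**
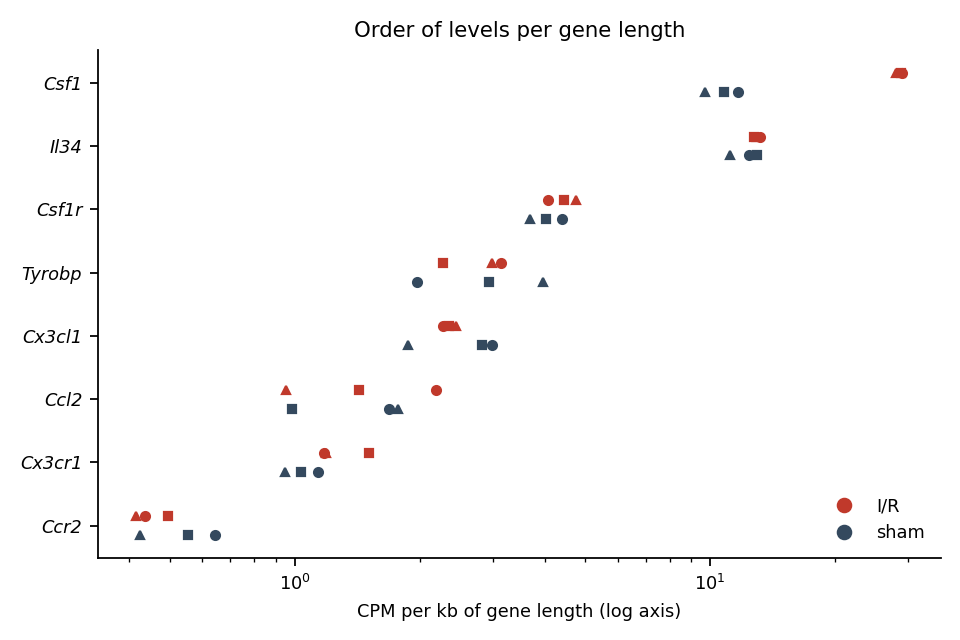
Level of each gene per kb of gene length on a log axis, ordered by the mean over all 6 libraries, with I/R in red above sham in dark blue and circles, squares and triangles for replicates 1 to 3. Csf1 lies at 28.0 to 29.0 CPM per kb in I/R and at 9.73 to 11.7 in sham, next to Il34 at 11.2 to 12.9 in sham.

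Each ligand was also read against its receptor in the same library. Csf1 stood at 7.13, 6.48 and 5.87 times Csf1r in I/R 1 to 3, against 2.66, 2.67 and 2.64 times Csf1r in sham 1 to 3, per gene length. The sham libraries were nearly equal and all I/R libraries lay above them. The mean log2 ratio was 1.28 higher in I/R (exact permutation p = 0.1, adjusted 0.2). Cx3cl1 over Cx3cr1 averaged a log2 ratio of 0.88 ± 0.21 in I/R and 1.27 ± 0.25 in sham (SD, n = 3 each), with overlapping groups (exact permutation p = 0.2, adjusted 0.267). Ccl2 over Ccr2 averaged 1.70 ± 0.56 in I/R and 1.45 ± 0.59 in sham on the log2 scale (exact permutation p = 0.6), and its difference turned negative without I/R 1 (-0.060) or sham 2 (-0.037).

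**Figure D4:**
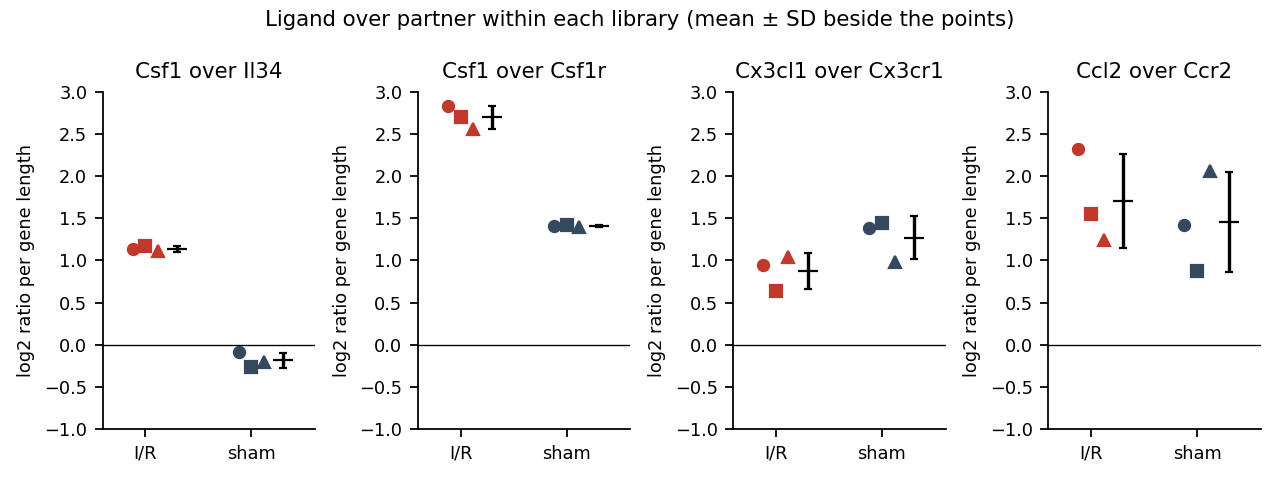
Log2 ratio of ligand over partner per gene length within each library, I/R left and sham right, with circles, squares and triangles for replicates 1 to 3 and bars for the mean ± SD. Csf1 over Il34 lies above 0 in the I/R libraries and below 0 in the sham libraries, Csf1 over Csf1r is higher in each I/R library than in any sham library, and the other 2 ratios overlap between groups.

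The cells that carry these receptors were followed through a list of 20 macrophage markers. Of 19 tested, 2 rose and none fell, and 7 reached an unadjusted p under 0.05. Log2 fold changes were above 0 for 14 and below 0 for 5. The median log2 fold change was 0.30, against 0.00 for all tested genes. Against sham 2 alone the median of the 19 was 0.19. Cd163, a scavenger receptor for hemoglobin, reached 6.14 ± 1.26 CPM in I/R and 3.04 ± 0.427 CPM in sham (SD, n = 3 each). F13a1, a coagulation factor subunit made by resident macrophages, stood at 6.57, 7.46 and 8.35 CPM in I/R 1 to 3, against 3.73, 4.70 and 3.96 CPM in sham 1 to 3 (1.81-fold, edgeR adjusted p = 0.0384). Cd163 lost its call each time 1 of the 6 libraries was left out, and F13a1 without I/R 2, I/R 3, sham 1 or sham 3, with adjusted p of up to 0.179. Neither was called against sham 2 alone, and Cd163 was not called in limma-voom (adjusted p = 0.0637). Summed, the markers stood at 92.2 to 94.9 CPM in I/R and 72.4 to 81.8 CPM in sham, without overlap.

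Relative to that sum, the log2 level of Csf1r was lower by 0.15 in I/R, that of Ccr2 by 0.53 and that of Tyrobp by 0.32, and that of Cx3cr1 was higher by 0.02. Groups overlapped for all 4 (exact permutation p of 0.2 to 0.9, adjusted over the 4 to between 0.533 and 0.9), and Cx3cr1 turned to -0.095 without I/R 2 and -0.085 without sham 3. Circulating cells showed no called gene: of 12 monocyte and neutrophil markers, 8 were tested and none passed in edgeR, DESeq2 or limma-voom, while 1 reached an unadjusted p under 0.05. Their sum was 19.8 to 24.6 CPM in I/R and 21.3 to 31.1 CPM in sham. The 1 under 0.05 was Camp, at -0.84 on the log2 scale. Of the 4 below the filter, the neutrophil gene Ly6g had counts of 13, 4 and 7 in I/R 1 to 3, against 2, 0 and 0 in sham 1 to 3. For the rest of them the groups overlapped. The microglia marker Tmem119 did not pass in these 3 tools. It stood at 1.33, 1.99 and 1.92 CPM in I/R 1 to 3, against 2.11, 3.20 and 3.03 CPM in sham 1 to 3 (adjusted p = 0.36 in edgeR's test).

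Axon injury genes moved with Csf1. Of a list of 12 such genes, 9 rose and none fell (7 rose against sham 2 alone), and their sum was 886 to 1235 CPM in I/R and 514 to 516 CPM in sham. The list was assembled with earlier results of these libraries known and is no independent evidence. Atf3, a transcription factor induced by axon damage, stood at 141, 129 and 110 CPM in I/R 1 to 3, against 9.23, 8.35 and 9.92 CPM in sham 1 to 3. Sprr1a, a growth-associated gene of injured sensory neurons, stood at 100.1, 80.2 and 70.4 CPM in I/R 1 to 3, against 0.589, 0.35 and 0.463 CPM in sham 1 to 3. Both were highest in I/R 1 and lowest in I/R 3 among the I/R libraries, as was Csf1, whose range there was narrow. None of the 10 sensory neuron markers passed in any of the 3 tools, and the number at an unadjusted p under 0.05 was 0. Summed fibroblast and meningeal markers, at 548 to 666 CPM in I/R and 996 to 1205 CPM in sham, and red cell markers, at 53.7 to 88.0 CPM in I/R and 183 to 274 CPM in sham, also separated the groups, and their part in the result for Csf1 was not tested.

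Of 14 other myeloid growth factors and their receptors, 11 were tested, and 2 rose and none fell. The cytokines Csf2, Csf3 and Il3 had a count of 0 in every library. Sdc1, the proteoglycan syndecan-1, which has been reported to bind IL-34, stood at 105, 96.9 and 89.6 CPM in I/R 1 to 3, against 39.5, 47.6 and 37.7 CPM in sham 1 to 3. The groups lay well apart, with a log2 fold change of 1.22 ± 0.12 (SE, adjusted p = 0.000772 in edgeR's test), and adjusted p of 0.103 against sham 2 alone. Csf2rb2, a receptor chain for interleukin 3 in mice, stood at 4.40, 4.50 and 4.61 CPM in I/R 1 to 3, against 2.06, 2.00 and 1.75 CPM in sham 1 to 3. Its log2 fold change was 1.21 ± 0.17 (adjusted p = 0.00846 in edgeR's test, 0.0542 without I/R 2 and 0.287 against sham 2 alone). Its near-identical neighbor Csf2rb, the common chain of the receptors for GM-CSF, interleukin 3 and interleukin 5, was 0.55 higher on the log2 scale and did not pass (adjusted p = 0.40), so the split of reads between the pair is uncertain. Summed, the pair stood at 10.6 ± 1.64 CPM in I/R and 6.09 ± 0.88 CPM in sham (SD, n = 3 each). Csf2ra, the specific chain of the GM-CSF receptor, stood at -0.31 on that scale (edgeR adjusted p = 0.56).

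Of 24 other chemokines and receptors that guide monocytes, 11 were tested and none passed in any of the 3 tools, while 3 reached an unadjusted p under 0.05. Their log2 fold changes were below 0 for 10 and above 0 for 1, with a median of -0.18. These directions leave out the genes below the filter. Of those, Ccr1 had counts of 20, 7 and 9 in I/R 1 to 3, against 3, 2 and 0 in sham 1 to 3. For the rest of them the groups overlapped. Against sham 2 alone, 13 genes passed the filter and their median was 0.02. Ccl7, a further ligand of CCR2, stood at 0.494, 0.436 and 0.319 CPM in I/R 1 to 3, against 1.08, 0.60 and 1.44 CPM in sham 1 to 3 (adjusted p = 0.24 in edgeR's test). Cxcl16 had a log2 fold change of -0.48, the eosinophil chemokine Ccl11 of -0.71 and the scavenging receptor Ackr3 of -0.30, with adjusted p of 0.32, 0.33 and 0.53 in the same test.

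Enzymes that cut fractalkine and the partners of DAP12 and CSF1R gave no called gene in edgeR, DESeq2 or limma-voom. Of 3 enzymes, Adam17 stood at -0.32 on the log2 scale (edgeR adjusted p = 0.38), the cathepsin gene Ctss at 0.24 and Adam10 at -0.020, and 1 had an unadjusted p under 0.05. Of 16 DAP12 partners and signaling genes, 10 were tested and 1 had an unadjusted p under 0.05. That gene was Trem2, a lipid-sensing receptor that signals through DAP12, at 1.33, 1.31 and 1.14 CPM in I/R 1 to 3, against 0.737, 0.65 and 0.72 CPM in sham 1 to 3 (adjusted p = 0.26). The kinase gene Syk stood at -0.45, Vav1 at 0.43 and Inpp5d, which encodes the phosphatase SHIP1, at -0.29 on the log2 scale (adjusted p of 0.55 to 0.70). All 13 genes of CSF1R signaling and macrophage transcription were tested, and 1 had an unadjusted p under 0.05, Spi1, which encodes the myeloid factor PU.1, at 0.62 (adjusted p = 0.46). Mitf stood at -0.38, the adaptor gene Grb2 at 0.13 and Pik3ap1 at -0.24.

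Of 16 other genes by which neurons and myeloid cells make contact, 15 were tested, and in edgeR none rose and 1 fell, while DESeq2 called 2 and limma-voom 1. Cd74, the invariant chain of MHC class II and a receptor of the cytokine MIF, stood at 29.7, 20.1 and 20.4 CPM in I/R 1 to 3, against 43.4, 43.3 and 43.6 CPM in sham 1 to 3. The sham libraries were nearly equal. Its log2 fold change was -0.89 ± 0.15 (SE, adjusted p = 0.0187 in edgeR's test), and the call was lost without I/R 2, I/R 3, sham 1, sham 2 or sham 3 (adjusted p of 0.0558 to 0.125) and against sham 2 alone (0.35). Mertk, a receptor for the uptake of dying cells, was 0.61 higher on the log2 scale and did not pass in edgeR (adjusted p = 0.0803) or limma-voom (0.098). It was called in DESeq2 (adjusted p = 0.0187), and in edgeR without a filter on low counts (0.013) and without I/R 1 (0.0409), but not against sham 2 alone (0.70). Tgfbr1 stood at 0.33 and P2rx7, an ATP-gated channel, at -0.22 (adjusted p = 0.46 and 0.49).

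**Figure D5:**
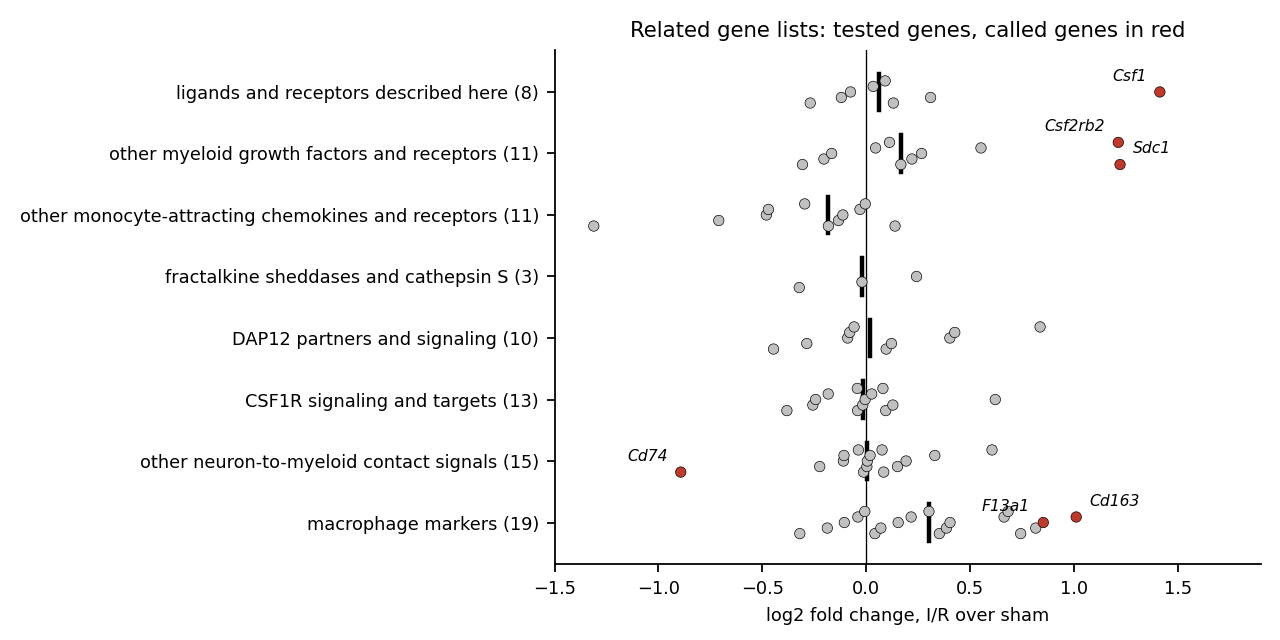
Log2 fold change of I/R over sham for the tested genes of each list, with the number tested in brackets, called genes in red with their symbols and the median as a black line; the vertical offset of points has no meaning. Csf1, Csf2rb2, Sdc1, F13a1 and Cd163 were called higher, Cd74 was called lower, and list medians lay between -0.18 and 0.30.

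The genes whose pattern over the 6 libraries was most like that of each member were found by the root mean square distance of their centered log2 CPM, among 13479 genes averaging 1 CPM or more. Closest to Csf1 were Star, the mitochondrial cholesterol carrier of steroid synthesis, at a distance of 0.06, Smim3 at 0.11 and the olfactory receptor gene Or8b53 at 0.12. Star stood at 12.8, 13.6 and 12.96 CPM in I/R 1 to 3, against 5.25, 5.25 and 4.78 CPM in sham 1 to 3. Because Csf1 separates the groups, genes close to it do so as well, and this likeness is a description. Closest to Csf1r were Pknox1, Slc6a6 and Usp6nl at 0.02 to 0.03, and closest to Cx3cr1 were Cybb, the phagocyte NADPH oxidase subunit, at 0.06, Zfp90 and Erich1. For Il34 they were Tbl3, Atpaf2 and Cars, for Cx3cl1 Igdcc4, Shisa7 and Faap100, and for Ccl2 Serpina11, Cst6 and Ap4s1. For Ccr2 they were Kcnj9, Smim1 and Tmco4, and for Tyrobp Exosc1, Ice2 and Ptrh2.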

How the data were processed

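The authors deposited 1 table of expected counts, the estimated reads per Ensembl gene and library, with gene lengths; between 10.7% and 11.5% of values in a library were not whole. Of the upstream steps, the submitters' processing notes list HISAT2, StringTie, fastp and the build GRCm39; the counting program, strand handling and gene annotation version are not given in the sources. Expected counts were rounded to whole numbers, as the design allowed, and tested with edgeR 4.0.16 in R 4.3.3 (quasi-likelihood test, TMM, filterByExpr, Benjamini-Hochberg over 16346 genes, called at an adjusted p under 0.05). Fold changes are I/R over sham. Ratios had 1 count added and were compared by exact permutation over the libraries. The authors' group means were not used.

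The members and gene lists were chosen with earlier results of these data known. Named genes are the members, each related list's 4 smallest p-values and called genes, called macrophage markers, Atf3 and Sprr1a, and the 3 genes nearest each member; Tmem119, Fabp7, Cldn11 and Cd79a were added after their values were seen. On counts simulated for this comparison over 16127 genes, the test recovered 32.8% of genes changed 1.5-fold, 79.1% at 2-fold and 100% at 4-fold, and 14 of 155 calls were false. No library pair within a group agreed within sampling noise (chi-square per degree of freedom 4.11 to 30.5). Floors for a count of 0 cover counting error only, and fold intervals come from the fit. Alternative settings tried were DESeq2 1.42.0, voom of limma 3.58.1, upper-quartile and RLE scaling, robust dispersion, other filters, a replicate block and leaving out each library; sham 2 alone and a muscle covariate were added after seeing the data.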

Additional observations from a re-analysis of the deposited data

How the results depend on the processing

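Csf1 was the 1 member called under all 16 alternatives. The count over all genes, 188, was 312 in DESeq2, 494 without a filter on low counts, 87 to 181 with 1 library left out, 32 against sham 2 alone and 25 with the muscle level as a covariate; the last 2 leave fewer samples or residual degrees of freedom, and the lone sham library is assumed to vary like the I/R libraries. With a replicate block it was 63. Same-numbered libraries had correlations of -0.11, 0.14 and -0.12 in their deviations from the group means, so the numbers were not taken as pairs; under the block Csf1 kept its call (adjusted p = 0.0103). Directions that turned were those of genes near 0 in the main fit. Over the 16 alternatives, the log2 fold change of Ccl2 reached 0.60 at most. With 1 library left out, the log2 fold change of Ccl2 ran from -0.32 to 0.29, of Tyrobp from -0.30 to 0.19, of Cx3cl1 from -0.30 to 0.0080 and of Adam10 from -0.075 to 0.074. Ccl2 was -0.0056 in limma-voom, Il34 was -0.018 against sham 2 alone, and Adam10 was 0.064 against sham 2 alone and 0.066 with the covariate. The log2 ratio of Ccl2 over Ccr2 ran from -0.060 to 0.56 and that of Cx3cr1 over macrophage markers from -0.095 to 0.13 with 1 library left out. The cause of these turns was not tested. Ccl2, Ccr2 and Tyrobp rest on 16 to 46 counts per library, which limits their precision.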

Other observations

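Other cells of the ganglion were followed by marker lists. Of 6 satellite glia markers 1 fell, Fabp7, and none rose, while 3 reached an unadjusted p under 0.05. Log2 fold changes were below 0 for 5 and above 0 for 1, Glul. Their sum was 812 to 846 CPM in I/R and 797 to 867 CPM in sham. Most of it was Glul, at a mean of 528 CPM in I/R and 422 CPM in sham (edgeR adjusted p = 0.15). Fabp7 stood at a mean of 77.5 CPM in I/R and 154 CPM in sham, so the sum hides opposite changes. Of 6 Schwann cell markers none passed in edgeR, DESeq2 or limma-voom, while 3 reached an unadjusted p under 0.05, with a sum of 5473 to 6162 CPM in I/R and 6460 to 6744 CPM in sham. Of 6 endothelial markers none passed in these tools, while 1 reached an unadjusted p under 0.05. Of 8 lymphocyte markers only Cd79a was above the filter, and it was not called in these tools (unadjusted p = 0.576 in edgeR's test). The summed oligodendrocyte markers stood at 4.20 to 7.36 CPM in I/R and 15.2 to 32.1 CPM in sham, and 1 of 3 tested, Cldn11, was called lower. In sham 2 the sum was mostly Cldn11, at 11.4 CPM. Mobp stood at 18.7, 3.20 and 12.7 CPM in sham 1 to 3, against 1.68, 3.53 and 2.83 CPM in I/R 1 to 3. Mog and Opalin had a count of 0 in sham 2. The low sum in I/R thus does not show a fall shared by these markers. Among fibroblast and meningeal markers 7 of 8 fell, and among red cell markers 5 of 6. Against sham 2 alone, 1 of the 8 fibroblast and meningeal markers and 2 of the 6 red cell markers fell.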
